A study of Rattus norvegicus with 6 samples.

Results

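The 10 genes described here are a panel that marks fat cells: the regulators Pparg and Cebpa, the hormones Adipoq and Lep, the secreted protease Cfd, the lipid-handling genes Fabp4, Lpl and Cd36, the lipase Lipe and the desaturase Scd1. They were chosen by name, through the gene symbol annotated to each probe of a rat microarray, and 9 of the 10 have a probe. Those 9 genes are read by 12 probes out of 26481 tested, and Adipoq, which encodes adiponectin, has no annotated probe among them and was not analysed here. The annotated symbol Scd1 stands for the gene now called Scd. In the RefSeq annotation of GRCr8, Lipe, Cebpa and Scd1 lie on chromosome 1, Fabp4 on chromosome 2, Cd36, Lep and Pparg on chromosome 4, Cfd on chromosome 7 and Lpl on chromosome 16.

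The RNA came from Sprague-Dawley rats, which began as weanlings of 4 weeks of age and spent 4 weeks on an ethanol-containing Lieber & DeCarli liquid diet or on the pair-fed diet of that kind. A closed mid-shaft fracture was then made in the pinned right hind-limb of some rats, and tissue was taken 3 days later, in the early inflammatory phase of healing. Diet and fracture were fully crossed, which gives 4 groups named here by diet and then by fracture state, and the labels number 3 samples per group. Each of the 6 possible pairings of groups was hybridised directly on 2-colour arrays, with a dye swap and no common reference, so each numbered sample appears in a single pairing. The labels do not say whether unfractured rats received a pin, or whether each numbered sample is a separate rat; if it is not, the p-values below measure only the spread between these samples, which may be technical.

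Fat cells arise in marrow from the same mesenchymal stromal precursors as bone-forming osteoblasts. Pparg, a nuclear receptor, and Cebpa, a leucine zipper transcription factor, sustain each other's expression during adipogenesis and switch on most of the other genes of the panel. A mature fat cell takes up fatty acids released from lipoproteins, stores them as triglyceride, releases them again by lipolysis, and secretes hormones such as leptin and adiponectin. Fatty marrow is a known feature of chronic alcohol intake. Several genes of the panel are also active outside fat cells: Cd36 and Fabp4 in macrophages and capillary endothelium, Lpl in macrophages and muscle, and Cebpa in myeloid precursors.

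Each value is a log ratio between the groups of a pairing. The sources used here give neither its log base nor its numerator, so values are printed in log ratio units, never as folds. Each was read as the first-named over the second-named group of its title, and is written below as alcohol-fed minus pair-fed, or as fracture minus no fracture. That reading is not settled for every pairing. The columns that set pair-fed fracture against either alcohol-fed group share their first group, yet correlated at -0.616 over all probes. Each result was therefore also computed with the column whose other group is alcohol-fed no fracture turned, and turned values are given beside the results they move most. That column is called uncertain below. The correlation does not settle whether any column is turned, or which of these it would be. Turning the other, pair-fed fracture with alcohol-fed fracture, was not computed. A ratio carries no level, so neither the presence of fat cells nor whether a probe stood above background could be checked against these markers. In whole tissue, fewer fat cells and less RNA per fat cell cannot be told apart.

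None of the 9 measured genes passed the test in any of the comparisons between groups, which does not show that they were alike (limma, Benjamini-Hochberg adjusted p over 23548 rows, threshold 0.05). The sizes were uneven. Cebpa had by far the highest fitted value in alcohol-fed rats with fracture, the fitted alcohol effects were below 0 for Fabp4 and slightly above 0 for Pparg and Lep in both fracture states, those of Cd36 had opposite signs, and those of Lpl, Scd1, Cfd and the mean of the disagreeing Lipe probes lay between -0.12 and 0.18.

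Pparg, the master regulator of adipogenesis, is read by a single probe. Its log ratios for alcohol-fed minus pair-fed were 0.10 between the fractured groups, 0.50 between the unfractured groups, 0.19 for alcohol-fed no fracture minus pair-fed fracture, and 0.18 for alcohol-fed fracture minus pair-fed no fracture. All 4 pairings that cross diet lay above 0 for Pparg. Its ratios for fracture minus no fracture were 0.12 in pair-fed and 0.38 in alcohol-fed rats. The fitted effect of alcohol was 0.21 ± 0.18 (SE) in fractured rats and 0.28 ± 0.18 in unfractured rats, with limma adjusted p of 0.737 and 0.999. The fitted effect of fracture on Pparg was 0.16 ± 0.18 in pair-fed rats and 0.09 ± 0.18 in alcohol-fed rats, both also short of the threshold.

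Cebpa encodes C/EBPα, the partner of Pparg in fat cells and a regulator of granulocyte and macrophage precursors in marrow. Its log ratio was 1.88 for alcohol-fed minus pair-fed between the fractured groups and 0.29 between the unfractured groups. The mixed pairings gave 0.63 for alcohol-fed fracture minus pair-fed no fracture and -0.53 for alcohol-fed no fracture minus pair-fed fracture. For fracture minus no fracture Cebpa gave 0.44 in pair-fed and 0.86 in alcohol-fed rats. The group that stood apart was alcohol-fed with fracture, which in the titles' direction was the higher group in all 3 of its pairings.

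The fitted effect of alcohol on Cebpa in fractured rats was 1.07 ± 0.35, with a 95% interval of 0.23 to 1.91 and a limma adjusted p of 0.318. The fitted effect of fracture in alcohol-fed rats was 1.11 ± 0.35, with an interval of 0.27 to 1.96 and a limma adjusted p of 0.153. These intervals leave out 0 only before adjustment over all rows. The corresponding effects were 0.06 ± 0.35 for alcohol in unfractured rats and 0.11 ± 0.35 for fracture in pair-fed rats. The difference between the diets' fracture effects, the interaction, was 1.00 ± 0.50 with a limma adjusted p of 0.555, so Cebpa was not shown to respond differently with and without alcohol.

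The pairings did not close well on each other for Cebpa. Between the fractured groups the direct ratio was 1.88, while the sums through pair-fed no fracture and through alcohol-fed no fracture were 0.19 and 0.33. Its residual SD of 0.686 stood at percentile 94.9 of all rows, whose median was 0.253. Leaving out the direct pairing lowered the fitted alcohol effect in fractured rats from 1.07 to 0.26, and this pairing decided most of its size. With the uncertain column turned, the same effect was 1.33 ± 0.29 with a limma adjusted p of 0.0747, the smallest adjusted p of any of the 9 genes in any setting tried. The fracture effect in alcohol-fed rats was then 0.85 ± 0.29. The direct pairing between the fractured groups is the other column of the conflict. Turning it was not computed, and it would give the ratio of 1.88 the opposite sign.

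Lep encodes leptin, the hormone by which fat cells report their lipid stores. The promoter of Lep is shown because it is the one promoter window among the measured genes with a full palindromic C/EBP site, the kind of site that the protein of Cebpa binds. RefSeq windows of 250 bases before the start were at hand for 6 of the 9 measured genes, and none for Fabp4, Lpl and Lipe. The Lep window spans chr4:58626288-58626537 on the plus strand of GRCr8, and capitals mark the palindrome.

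Lep: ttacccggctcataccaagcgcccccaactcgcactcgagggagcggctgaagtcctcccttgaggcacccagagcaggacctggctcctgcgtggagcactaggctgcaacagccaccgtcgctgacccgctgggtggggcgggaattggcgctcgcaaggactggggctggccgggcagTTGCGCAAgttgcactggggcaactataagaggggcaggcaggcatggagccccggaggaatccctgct

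The palindrome TTGCGCAA lies 69 to 62 bases before the start used for this window and reads the same on both strands. The RefSeq gene start of Lep, at 58626529, lies inside the window. It occurs in 47 of 33469 windows of the same length, or 0.14%. It was picked for display after 8 patterns had been searched on both strands, among them looser forms of this site, a TATA box and the nuclear receptor half-site AGGTCA alone and as a direct repeat with a single base between. The looser form GCGCAA overlaps it and was also in the Cebpa window, with 5.52% of all windows holding it. The form TTNCGNAA, found in 2.13% of windows, was again in the Lep window alone among the members, and TTGCNNAA, found in 9.22%, was in Lep and Pparg windows. TATAAA was in the Cd36 and Cebpa windows and in 12.9% of all, while AGGTCA was in 14.1% of windows and in no window of a member. A match is a run of letters and not a measured binding site.

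The log ratios of Lep for alcohol-fed minus pair-fed were 0.24 between the fractured groups, 0.13 between the unfractured groups, 0.33 for alcohol-fed no fracture minus pair-fed fracture and 0.17 for alcohol-fed fracture minus pair-fed no fracture. Like Pparg, Lep was above 0 on all 4. For fracture minus no fracture it gave 0.20 in pair-fed and 0.18 in alcohol-fed rats. The fitted alcohol effect on Lep was 0.24 ± 0.16 in fractured rats and 0.19 ± 0.16 in unfractured rats, with limma adjusted p of 0.644 and 0.999. With the uncertain column turned these shrank to 0.07 ± 0.15 and 0.03 ± 0.15.

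Cfd encodes complement factor D, also called adipsin, a serine protease that fat cells secrete in quantity. Averaged over its 3 probes, the Cfd ratios for alcohol-fed minus pair-fed ran from -0.16 to 0.23, and those for fracture minus no fracture were 0.05 in both diets. The fitted alcohol effect was 0.08 ± 0.16 in fractured and 0.02 ± 0.16 in unfractured rats, and the fracture effect was -0.03 ± 0.16 in pair-fed and 0.04 ± 0.16 in alcohol-fed rats. The 95% interval in fractured rats, from -0.30 to 0.46, bounds the alcohol effect on Cfd without showing that there is none.

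Fabp4, also called aP2, encodes the fatty acid-binding protein of the fat cell cytoplasm and is a textbook target of Pparg. Its log ratios for alcohol-fed minus pair-fed were -0.63 between the fractured groups, -0.99 between the unfractured groups, -0.62 for alcohol-fed fracture minus pair-fed no fracture, and 0.23 for alcohol-fed no fracture minus pair-fed fracture. In the titles' direction Fabp4 was thus lower with alcohol in 3 of 4 pairings. The exception is the uncertain column, and the -0.63 comes from the other column of that conflict, which was not turned. For fracture minus no fracture Fabp4 gave 0.39 in pair-fed and -0.05 in alcohol-fed rats. The fitted alcohol effect was -0.52 ± 0.29 in fractured rats and -0.48 ± 0.29 in unfractured rats, with limma adjusted p of 0.582 and 0.999. Turned, the effects were -0.64 ± 0.22 and -0.60 ± 0.22, with limma adjusted p of 0.18 and 0.74. Fabp4 also closed poorly, with a residual SD of 0.543 at percentile 90.2 of all rows.

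Lpl, lipoprotein lipase, frees fatty acids from circulating triglyceride at the capillary wall. Its ratios for alcohol-fed minus pair-fed lay between -0.24 and 0.06, and it gave 0.11 and -0.19 for fracture minus no fracture in pair-fed and alcohol-fed rats. The fitted effect of alcohol on Lpl in fractured rats was -0.12 ± 0.15, with an interval of -0.48 to 0.25. The pairings closed better for Lpl than for most rows, with a residual SD of 0.151 at percentile 19.8.

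Cd36 encodes the fatty acid translocase, a membrane protein that brings fatty acids into fat cells, muscle and macrophages. Its log ratio for alcohol-fed minus pair-fed was 0.66 between the fractured groups and -0.50 between the unfractured groups. The mixed pairings gave 0.06 for alcohol-fed no fracture minus pair-fed fracture and -0.14 for alcohol-fed fracture minus pair-fed no fracture. In the titles' direction, the sign of the alcohol difference in Cd36 thus went with fracture state in the direct pairings. The 0.66 comes from the other column of the sign conflict, which was not turned. Between the fractured groups, the sums through pair-fed no fracture and through alcohol-fed no fracture were -0.23 and 0.24. The fitted alcohol effect was 0.33 ± 0.21 in fractured rats and -0.29 ± 0.21 in unfractured rats. Their difference, the interaction, was 0.62 ± 0.30 with a limma adjusted p of 0.536, so the opposite signs were not shown to differ. Leaving out the direct pairing of the fractured groups took the fitted alcohol effect on Cd36 in fractured rats from 0.33 to 0.

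Lipe encodes hormone-sensitive lipase, which splits diacylglycerol during lipolysis, and is read by 2 probes that disagreed. On pair-fed fracture over alcohol-fed fracture, in the order of the title, the probes gave 0.872 and -1.10, and their mean of -0.11 describes neither. The fitted alcohol effect of the mean in fractured rats was 0.18 ± 0.16, against -0.19 ± 0.32 for the first probe alone and 0.56 ± 0.26 for the second. The Cfd probes also disagreed on alcohol-fed fracture over alcohol-fed no fracture, with 0.45, -0.248 and -0.0416.

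**Figure D1:**
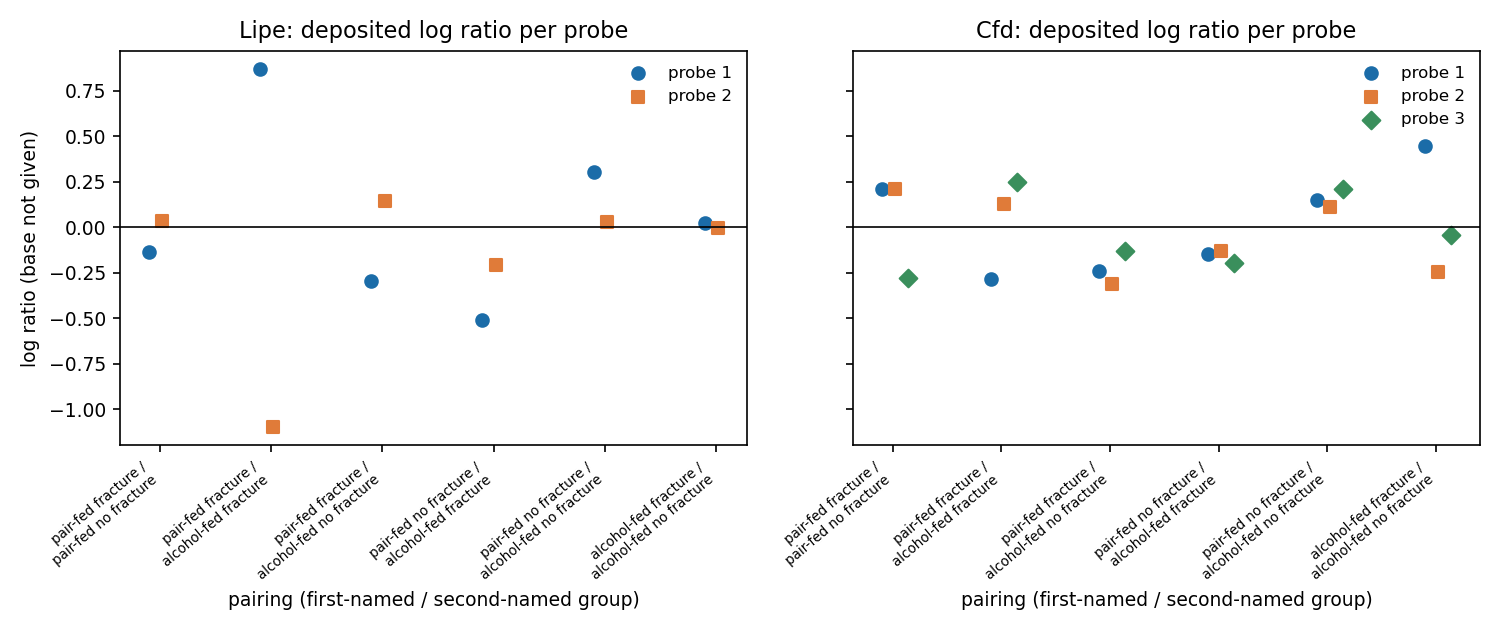
Deposited log ratio (vertical axis, base not given) of each Lipe and Cfd probe on each of the 6 pairings (horizontal axis, first-named over second-named group), with a point per probe. The Lipe probes lie on opposite sides of 0 at 0.872 and -1.10 on pair-fed fracture over alcohol-fed fracture, and the Cfd probes spread from -0.248 to 0.45 on alcohol-fed fracture over alcohol-fed no fracture.

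Scd1, stearoyl-CoA desaturase, makes the monounsaturated fatty acids that fill lipid droplets. Its ratios for alcohol-fed minus pair-fed were -0.07 between the fractured groups, 0.41 between the unfractured groups, 0.05 for alcohol-fed no fracture minus pair-fed fracture and -0.01 for alcohol-fed fracture minus pair-fed no fracture. For fracture minus no fracture Scd1 gave -0.17 in pair-fed and 0.62 in alcohol-fed rats. The fitted fracture effect in alcohol-fed rats was 0.17 ± 0.23, far under the direct ratio, since the sums of ratios through the pair-fed groups were -0.13 and -0.42.

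**Figure D2:**
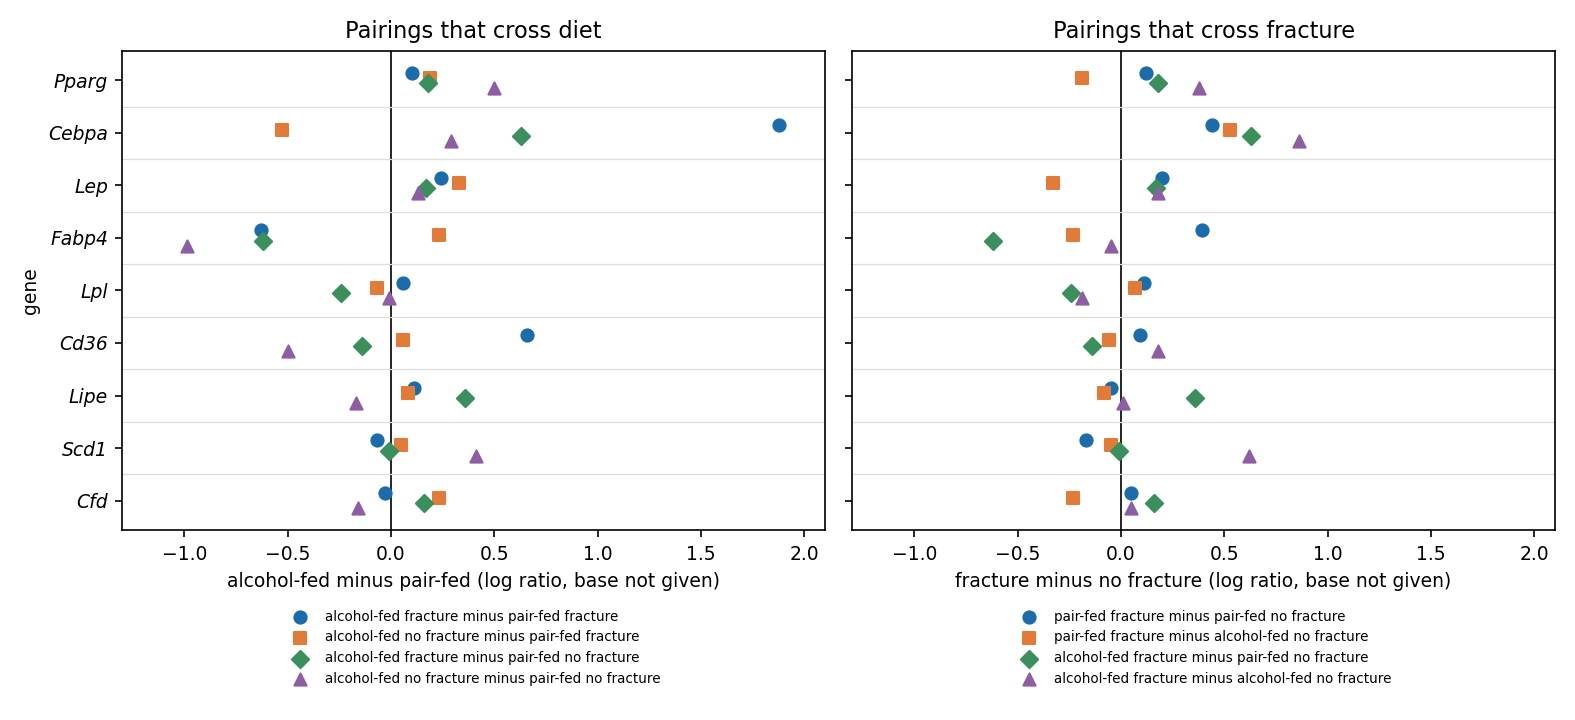
Log ratios (horizontal axis, base not given) of the 9 measured genes on the 4 pairings that cross diet, as alcohol-fed minus pair-fed (left), and on the 4 that cross fracture, as fracture minus no fracture (right), with a point per pairing. Pparg (0.10 to 0.50) and Lep (0.13 to 0.33) lie above 0 on all 4 diet pairings, Cebpa (0.44 to 0.86) on all 4 fracture pairings, and Fabp4 below 0 on 3 of 4 diet pairings. Turning the pairing of pair-fed fracture with alcohol-fed no fracture makes these counts 3, 3, 3 and 4.

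Across diet, Pparg and Lep were the members above 0 on all 4 pairings, which use different numbered samples. Of all 23548 rows, 4.16% were above 0 on all 4. The values of both genes are small, and with the uncertain column turned both were above 0 on 3 of 4. Fabp4 was below 0 on 3 of 4, as were 25.2% of rows, and on 4 of 4 when turned. Lpl was likewise below 0 on 3 of 4, and on 2 when turned, which also put Cebpa above 0 on all 4. Across fracture, Cebpa was above 0 on all 4 pairings with values of 0.44, 0.53, 0.63 and 0.86, as were 9.53% of rows, and on 3 of 4 when turned. Fabp4 and Scd1 were below 0 on 3 of the 4 fracture pairings, as were 27.4% of rows, and on 2 when turned, which put Pparg, Lep and Cfd above 0 on all 4. Turning also left Cd36, Scd1 and Cfd above 0 on only 1 of 4 diet pairings, and Lpl on 1 of 4 fracture pairings. These counts were made after the values had been seen, and the pairing of pair-fed fracture with alcohol-fed no fracture enters both sets. Shares of all rows were not computed for the turned counts, so the turned counts have no background beside them.

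The averaged effects follow the same pairings and were also added after the data were seen. The alcohol effect averaged over fracture state was 0.24 ± 0.13 for Pparg, 0.22 ± 0.11 for Lep, 0.57 ± 0.25 for Cebpa and -0.50 ± 0.21 for Fabp4, each with a limma adjusted p of 1. Turned, these averages were 0.15 ± 0.13 for Pparg, 0.05 ± 0.10 for Lep, 0.83 ± 0.21 for Cebpa and -0.62 ± 0.16 for Fabp4, the last with a limma adjusted p of 0.167. The fracture effect averaged over diet was 0.61 ± 0.25 for Cebpa, with a limma adjusted p of 0.358, and turned it was 0.35 ± 0.21.

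**Figure D3:**
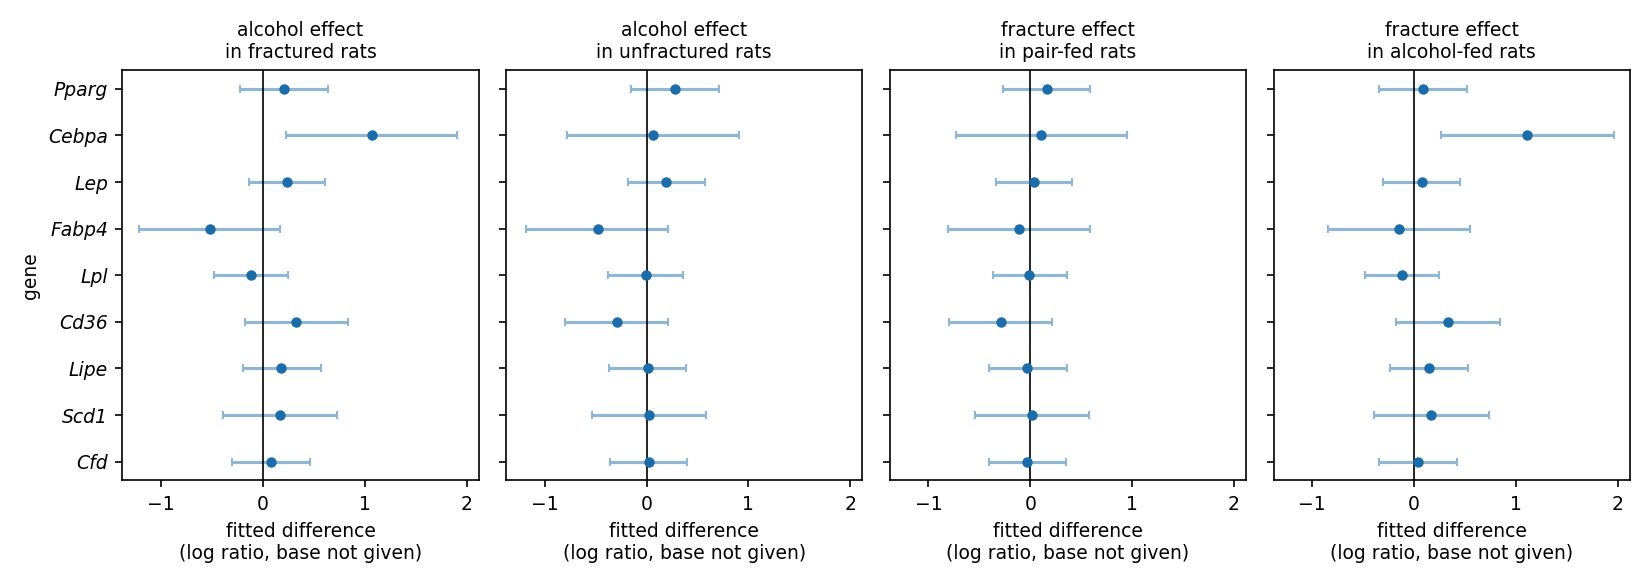
Fitted differences (horizontal axes, log ratio units, base not given) of the 9 measured genes in the 4 comparisons, with 95% intervals as bars, before adjustment over rows. The Cebpa intervals of 0.23 to 1.91 and 0.27 to 1.96 are the ones that leave out 0, in the alcohol effect in fractured rats and the fracture effect in alcohol-fed rats.

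The first comparison set alcohol-fed against pair-fed rats, both with fracture. In that comparison 7 of the 9 measured genes lay above 0 and 2 below, with a median of 0.18, against 52.8% of all rows above 0 and a median of 0.02. No member was called, nor was any row (0 of 23548, smallest limma adjusted p 0.103). At an unadjusted p under 0.05 there was 1 member, Cebpa, beside 11.5% of all rows. With the uncertain column turned the median was 0.11, with 6 of 9 above 0 and still no member called, while 435 rows were.

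Alcohol in unfractured rats gave 6 of 9 members above 0 and a median of 0.02, beside 47.5% of rows. It called no row, and at an unadjusted p under 0.05 it passed none of the members and 3.48% of rows. Turned, 4 of 9 members were above 0 with a median of -0.01, so the sign of this median is not settled. Fracture in pair-fed rats gave 4 of 9 above 0 and a median of -0.01, beside 45.9% of rows. It too called no row, with none of the members and 1.90% of rows at an unadjusted p under 0.05, and turned it gave 6 of 9 above 0 and a median of 0.01.

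Fracture in alcohol-fed rats was the comparison with calls: 999 rows, or 4.24%, and none of the 9 members. Of the members 7 lay above 0, beside 53.0% of rows, with a median of 0.09 (0.19 turned), and at an unadjusted p under 0.05 there was 1 member, Cebpa, beside 18.9% of rows. The calls in this comparison came to 0 once the uncertain column was turned. They were also 0 without the pairing of the pair-fed groups, without the pairing of pair-fed fracture with alcohol-fed no fracture, or without the pairing of the alcohol-fed groups. Without the pairing of pair-fed no fracture with alcohol-fed fracture 655 were called.

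The interaction of diet and fracture called no row. It gave 6 of 9 members above 0, beside 54.4% of rows, with none of the members and 10.6% of rows at an unadjusted p under 0.05. The averaged alcohol effect called no row and gave 7 of 9 members above 0, or 5 turned, beside 47.8%, with Fabp4 and 4.69% of rows at an unadjusted p under 0.05. The averaged fracture effect called no row and gave 7 of 9 above 0 beside 49.2%, with Cebpa and 13.6% of rows at that level.

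Each difference can also be reached by 3 paths, the direct pairing and the sums through either of the other groups. The 3 paths had the same sign for 3 of 9 members for alcohol in fractured rats (Pparg, Cebpa and Lipe), where 34.5% of rows did so. They had it for none of the members for alcohol in unfractured rats (24.9% of rows), for Pparg for fracture in pair-fed rats (22.3% of rows), and for Cebpa, Cd36 and Lipe for fracture in alcohol-fed rats (34.5% of rows). The members thus stood near the background on this count.

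By fitted value relative to the mean of the 4 groups, Cebpa was at 0.84 in alcohol-fed rats with fracture, and at -0.23, -0.27 and -0.34 in pair-fed fracture, alcohol-fed no fracture and pair-fed no fracture, each ± 0.22 (SE). The lower groups of Cebpa lay within their error of each other. Fabp4 ran from 0.31 in pair-fed no fracture through 0.20 in pair-fed fracture and -0.18 in alcohol-fed no fracture to -0.32 in alcohol-fed fracture, each ± 0.18. Pparg ran the opposite way, from -0.20 in pair-fed no fracture through -0.04 and 0.08 to 0.17 in alcohol-fed fracture, each ± 0.11, and Lep went from -0.13 through -0.09 and 0.07 to 0.15 in the same order, each ± 0.10. In these orders the steps between neighbours of the same diet lay within 95% intervals that held 0, and the step from pair-fed fracture to alcohol-fed no fracture was not tested. Cd36 was at 0.17 in alcohol-fed fracture and 0.14 in pair-fed no fracture, and at -0.16 in both other groups. Lpl, Lipe, Scd1 and Cfd lay between -0.09 and 0.13 in every group.

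**Figure D4:**
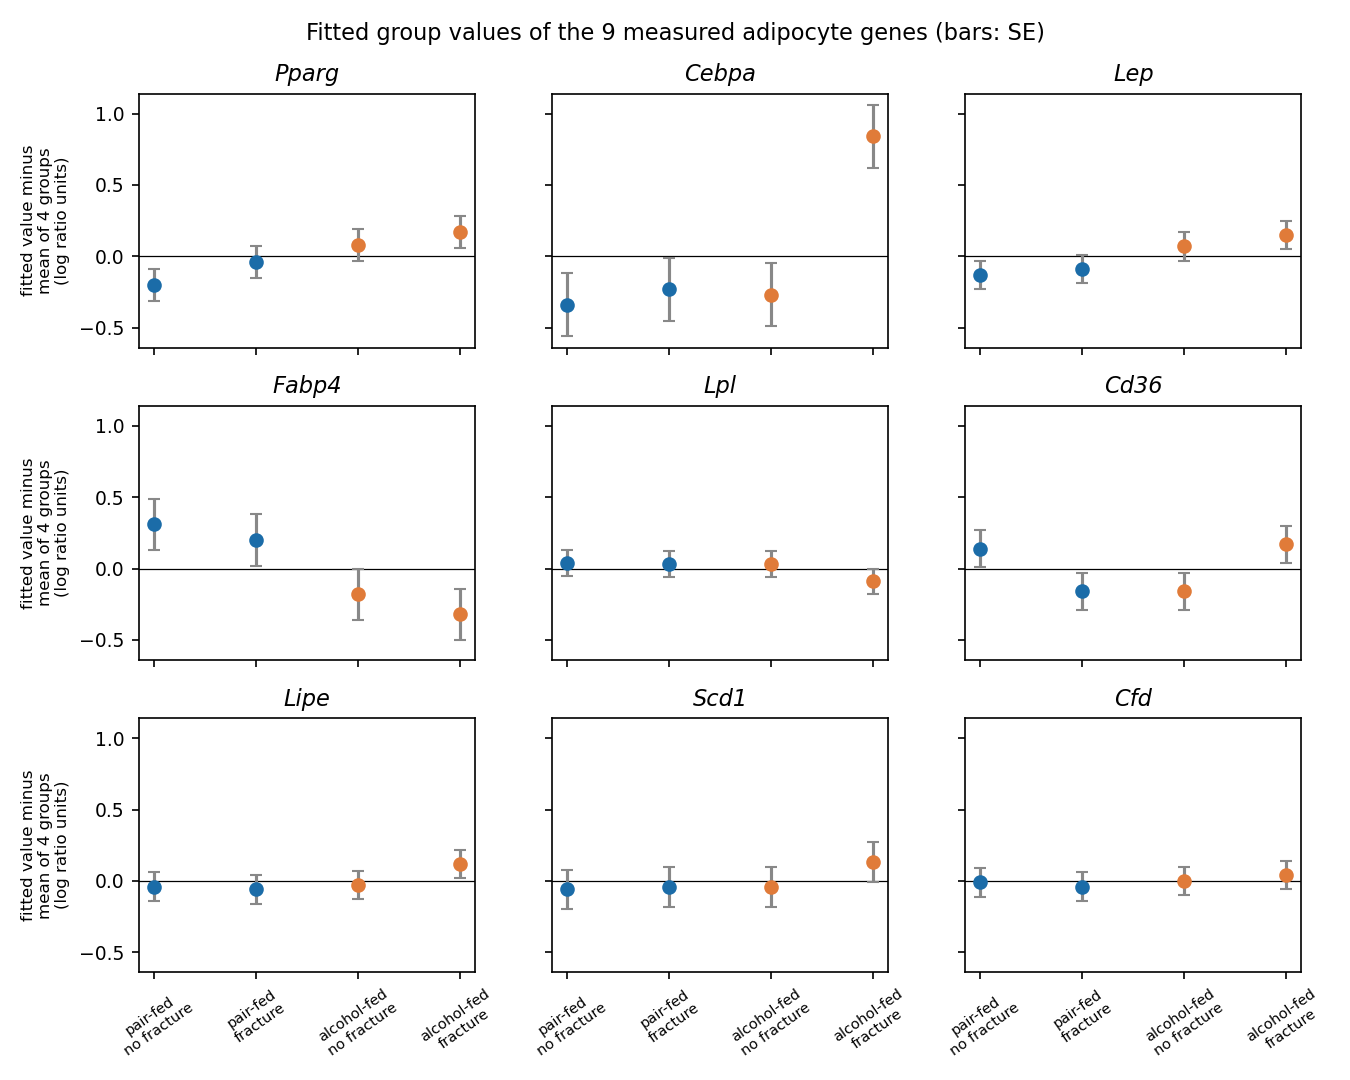
Fitted value of each measured gene in the 4 groups (horizontal axis), minus the mean of the 4 groups (vertical axis, log ratio units), with SE bars and pair-fed groups in blue and alcohol-fed groups in orange. Cebpa stands at 0.84 in alcohol-fed fracture with its other groups below 0, Fabp4 is lower in the alcohol-fed groups, and Pparg and Lep are slightly higher there.

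Because Adipoq has no probe, the genes most like Fabp4 over the 6 columns, in the titles' direction, were looked up. They were Scarf1, Or8g28 and Atp6v0e1, with Pearson correlations of 0.997, 0.996 and 0.996. These are the highest values found among the named genes outside the panel, out of 12588 named genes in all. So wide a search over so few columns can give high correlations by itself. The 6 columns share groups with each other, and the ratios of Scarf1 spanned only -0.14 to 0.17 where those of Fabp4 spanned -0.23 to 0.99.

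Other genes of fat biology were taken from fixed lists. Of their 76 measured genes 3 were called in the fracture effect in alcohol-fed rats, or 3.95% beside 4.24% of all rows, so the lists stood at the background, and none was called in the other comparisons. G0s2, which encodes an inhibitor of the triglyceride lipase of fat cells, fell by 1.48 ± 0.21 with a limma adjusted p of 0.028. Rxra, which encodes the obligate partner receptor of Pparg, fell by 0.78 ± 0.16 with a limma adjusted p of 0.0471. Rarres2, which encodes the adipokine chemerin, rose by 1.03 ± 0.21 with a limma adjusted p of 0.0465. With the uncertain column turned the values were -1.09, -0.63 and 0.94, and none was called (limma adjusted p of 0.149, 0.127 and 0.148).

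Among 10 measured adipogenic transcription factors and regulators, 6 were above 0 for alcohol in fractured rats (median 0.13), led by Rxra at -0.64 ± 0.16 and Klf15, which favours adipogenesis, at 0.40 ± 0.18, and none passed the test. Of 9 measured genes of lipolysis, 8 were below 0 for alcohol in fractured rats (median -0.23) and 8 for fracture in alcohol-fed rats (median -0.29), where G0s2 was the single call and Pde3b, the phosphodiesterase through which insulin restrains lipolysis, stood at -0.80 ± 0.19 with a limma adjusted p of 0.0738. G0s2 and Pde3b both restrain lipolysis, although the list is named for it.

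Of 12 measured genes of fatty acid and triglyceride synthesis, 10 were below 0 for alcohol in fractured rats with a median of only -0.08. The 6 measured lipid droplet genes had a median of 0.35 there, with the droplet protein gene Plin2 at 0.64 ± 0.22 and Cidea at 0.92 ± 0.40. Turned, the droplet median was 0.11 and Plin2 was at 0.10. The 4 measured genes of insulin action were all above 0 for alcohol in fractured rats (median 0.38), with Irs1, which encodes an adaptor of the insulin receptor, at 0.49 ± 0.23, and for fracture in alcohol-fed rats (median 0.34), with the glucose transporter gene Slc2a4 at 0.62 ± 0.28. Turned, 3 of 4 were above 0 for fracture. None of the synthesis, droplet and insulin genes passed the test.

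None of the genes of the remaining lists passed the test for alcohol in fractured rats. Medians were 0.19 for 7 genes of lipid uptake and transport, -0.22 for 11 adipokines, -0.10 for 6 adipokine receptors, 0.20 for 7 preadipocyte genes and inhibitors of adipogenesis, and 0 for 4 thermogenic genes. Turned, uptake stood at a median of 0.03, adipokines stood at -0.04 and thermogenic genes at -0.14. For fracture in alcohol-fed rats the medians were 0.18 for the transcription factors, -0.13 for synthesis, 0.13 for droplets, -0.01 for uptake, 0.04 for adipokines, 0.01 for their receptors, 0.17 for preadipocyte genes and -0.07 for thermogenic genes. Turned, the medians were 0.22 for uptake, -0.27 for adipokines, 0.06 for thermogenic genes and -0.01 for synthesis, so the direction of the first 3 is not settled. Pdgfra, a receptor carried by stromal fat precursors, was at 0.53 ± 0.21 and 0.81 ± 0.21 in the respective comparisons, short of the threshold in both.

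**Figure D5:**
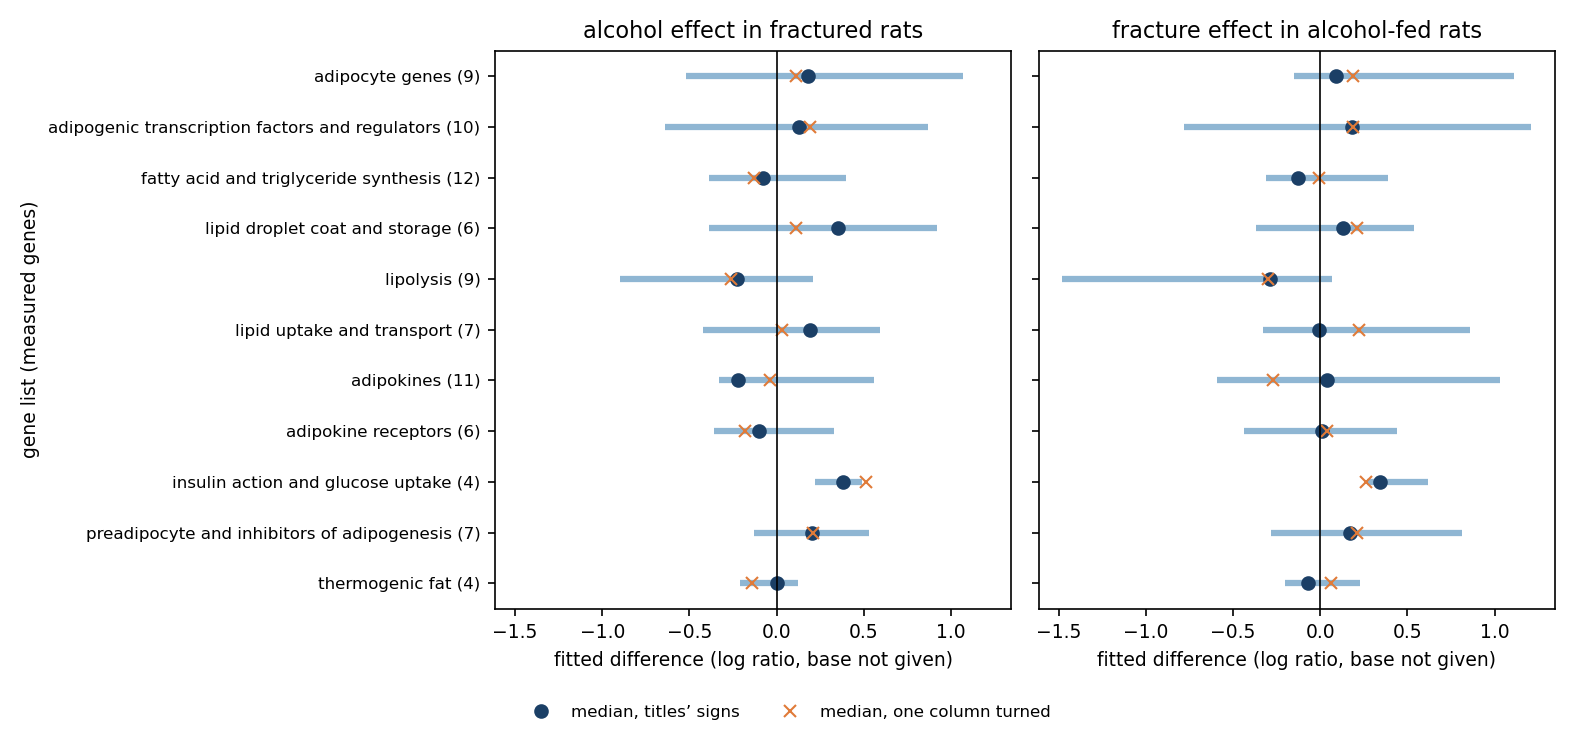
Fitted differences (horizontal axes, log ratio units, base not given) of the adipocyte genes and of 10 lists of fat biology (vertical axis, with the number of measured genes), for the alcohol effect in fractured rats (left) and the fracture effect in alcohol-fed rats (right). Bars span the lowest to the highest gene, points are list medians with the titles' signs and crosses are medians with the uncertain column turned. The adipocyte genes have medians of 0.18 and 0.09, and the lipolysis genes lie lowest at -0.23 and -0.29.

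Some marker lists of other cells had medians farther from 0 than the fat genes. Of all rows, 52.8% lay above 0 for alcohol in fractured rats and 53.0% for fracture in alcohol-fed rats, and 4.24% were called in the latter. Of 13 measured skeletal muscle markers, 12 were above 0 for alcohol in fractured rats (median 1.07) and 12 for fracture in alcohol-fed rats (median 1.59), where Tnni2, Myl11, Actn2 and Mybpc2 rose and Eno3 fell. Of 11 erythroid markers 9 were below 0 for alcohol in fractured rats (median -0.50). For fracture in alcohol-fed rats 6 were below 0 and 5 above, up to 1.23 (median -0.55), with 4 called lower. Neutrophil markers had medians of -0.31 and -0.45 and osteoblast markers of -0.16 and -0.17, with 1 called lower in each list for fracture in alcohol-fed rats (S100a9 and Col1a2). Macrophage markers had medians of -0.01 and 0.10, with Lyz2 at 0.81 ± 0.15 and Cd14 at 0.99 ± 0.20 called higher for fracture in alcohol-fed rats, and endothelial markers had medians of 0.03 and 0.04. Turned, the medians for alcohol in fractured rats were 0.10 for macrophage, -0.03 for endothelial and -0.23 for erythroid markers. With the uncertain column turned none of these calls held for fracture in alcohol-fed rats. For alcohol in fractured rats 2 muscle and 3 erythroid markers were then called, beside 435 of 23548 rows. Alcohol-fed with fracture was the higher group for the muscle list in both comparisons and had the highest fitted Cebpa value, and the part of any of these cells in the values of the fat genes was not tested.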

How the data were processed

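RNA of the fracture region, or of the matching unfractured region, was compared in 6 pairings of 4 rat groups. Per the labels' protocols, tissue was ground frozen and extracted with Trizol, and the RNA was amplified and dye-coupled (Cy3, Cy5). The design states a dye swap for every pairing and 12 arrays, while 6 columns were deposited, so a column seems to hold both arrays of a pairing. The values deposited by the authors are log ratios whose base is not stated. Of the scanner, background correction, normalization and filters, no step is given in the sources used here. From the values, columns were centred on a mean of 0 (medians -0.0481 to 0.0233, SD 0.252 to 0.573), so a change shared by every gene would be hidden. Signals were not used here, so the number of arrays limits the precision and dim probes could not be set aside.

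Of 26503 probes, 22 control spots were left out. The platform annotation named 1 gene for 15521 of the other 26481 probes, none had several genes, and 10960 are unnamed here. Of those symbols, 11839 were current, 3632 were updated and 50 were kept. Probes of a gene were averaged, which left 23548 rows, 12588 of them named genes. The 4 groups were fitted over the 6 pairings with limma 3.58.1 in R 4.3.3 (lmFit, eBayes, two-sided, Benjamini-Hochberg over all rows, threshold 0.05), with 3 residual and 3.66 prior degrees of freedom. The group model left a share of 0.403 of the variation unexplained, and 0.317 with the uncertain column (alcohol-fed no fracture paired with pair-fed fracture) turned. The fit was tested on simulated data. Alternatives were that turned column, columns scaled to 1 spread, no variance moderation, each probe as a row and leaving out each pairing.

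Members and lists were chosen with earlier results of these data known. The averaged effects, the counts over crossing pairings and the promoter pattern were chosen after seeing the data. By rule, all measured members were named, with the called genes and at most the 2 smallest p-values of each list. Promoter sequences are from RefSeq (GRCr8).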

Additional observations from a re-analysis of the deposited data

How the results depend on the processing

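No paired analysis was possible because each numbered sample is on a single pairing, so no numbers pair samples across comparisons. No member was called in any setting run. Medians over the members moved by less than the median SE of the members in all 70 values computed. That is a loose limit, since for alcohol in fractured rats this SE was 0.18, about the size of the median of 0.18. The medians ranged from 0.08 to 0.27 for alcohol in fractured rats and from -0.02 to 0.19 for fracture in alcohol-fed rats. They also lay on both sides of 0 for alcohol in unfractured rats (-0.04 to 0.05) and fracture in pair-fed rats (-0.13 to 0.05). The same held for the interaction (-0.04 to 0.18) and averaged fracture (-0.03 to 0.12). Of 602 values of single members under the alternatives 93 changed sign, none from a result over 0.48 in size.

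Counts of called rows moved more, and the cause was not tested. For alcohol in fractured rats 0 rows became 435 with the uncertain column turned and 4 without variance moderation. For fracture in alcohol-fed rats 999 became 0 turned, 469 with columns scaled and 2 without moderation, and 0 to 918 leaving out a pairing. Without moderation the interaction called 2 rows, averaged alcohol 3 and averaged fracture 1, and averaged alcohol called 4 turned.

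Signs changed with the uncertain column turned for alcohol in fractured rats Cfd -0.03, for alcohol in unfractured rats Lpl 0.02, Lipe -0.03, Scd1 -0.01 and Cfd -0.10, for fracture in pair-fed rats Cebpa -0.15, Fabp4 0.01, Lipe 0.01 and Cfd 0.09, for averaged alcohol Cd36 -0.01 and Cfd -0.06. With columns scaled they changed for alcohol in unfractured rats Lipe -0.01, for fracture in pair-fed rats Lpl 0.02 and Scd1 -0.02, for the interaction Lep -0.09 and Fabp4 0.01, for averaged alcohol Cd36 -0.05. With a single probe they changed for alcohol in fractured rats Lipe (probe 1) -0.19 and Cfd (probe 2) -0.07, for alcohol in unfractured rats Cfd (probe 1) -0.04 and Cfd (probe 3) -0.08, for fracture in pair-fed rats Lipe (probe 1) 0.13 and Cfd (probe 2) 0.06, for fracture in alcohol-fed rats Lipe (probe 1) -0.08, Cfd (probe 2) -0.17 and Cfd (probe 3) -0.02, for the interaction Lipe (probe 1) -0.20 and Cfd (probe 2) -0.23, for averaged alcohol Lipe (probe 1) -0.09 and Cfd (probe 3) -0.03, for averaged fracture Cfd (probe 2) -0.06 and Cfd (probe 3) -0.06.

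Leaving out each pairing in turn changed the sign of 38 of 63 results. Ranges for alcohol in fractured rats were Cfd -0.01 to 0.20 and Scd1 -0.05 to 0.42. Ranges for alcohol in unfractured rats were Cebpa -0.16 to 0.34, Cfd -0.08 to 0.19, Fabp4 -0.79 to 0.02, Lipe -0.09 to 0.19, Lpl -0.07 to 0.05 and Scd1 -0.37 to 0.24. Ranges for fracture in pair-fed rats were Cebpa -0.22 to 0.51, Cfd -0.10 to 0.07, Fabp4 -0.61 to 0.19, Lep -0.13 to 0.12, Lipe -0.13 to 0.06, Lpl -0.13 to 0.08 and Scd1 -0.18 to 0.21. Ranges for fracture in alcohol-fed rats were Cfd -0.05 to 0.13, Fabp4 -0.40 to 0.16, Lep -0.02 to 0.16, Pparg -0.21 to 0.20 and Scd1 -0.27 to 0.37. Ranges for the interaction were Cfd -0.11 to 0.18, Fabp4 -0.54 to 0.46, Lep -0.06 to 0.21, Lipe 0 to 0.31, Lpl -0.29 to 0.01, Pparg -0.36 to 0.15 and Scd1 -0.29 to 0.55. Ranges for averaged alcohol were Cd36 -0.15 to 0.12, Cfd -0.04 to 0.14, Lipe -0.01 to 0.18 and Scd1 -0.10 to 0.22. Ranges for averaged fracture were Cd36 -0.18 to 0.11, Cfd -0.04 to 0.10, Fabp4 -0.38 to 0.17, Lep -0.03 to 0.14, Lipe -0.04 to 0.13, Pparg -0.03 to 0.22 and Scd1 -0.13 to 0.20.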
